A study of Schizosaccharomyces pombe with 6 samples.

Results

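The right end of chromosome III of the fission yeast Schizosaccharomyces pombe is described here as a stretch of 200 kb, III 2233001 to 2433000 in the array's coordinates (build Spombe:NCBI:Feb2002, per the file headers). Its members are all 718 non-control probes inside these limits, of 42707 on the array, and they filled 192 of the 12058 bins of 1 kb with at least 2 probes. The stretch was chosen by its log2 IP/input, which was raised on several of these arrays, so those levels are given as a description and carry no test.

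The study mapped the recombination protein Rad52 by chromatin immunoprecipitation on tiling arrays in synchronised cells, with 3 arrays labelled ∆rad3 and 3 labelled WT. By the labels, the ∆rad3 cells lacked the gene of the checkpoint kinase Rad3 in a cdc25-22 background, and the WT cells carried cdc25-22 alone. Both strains were held at 36.5 °C for 4 h, shifted to 25 °C for release, treated with 6 mM hydroxyurea (HU) and collected at 60 min. The labels place the HU addition 10 min after release for the 3 ∆rad3 samples and WT replicate 3, and give no time for WT replicates 1 and 2. The labels of WT replicates 1 and 2 describe a formaldehyde-fixed chromatin immunoprecipitation with an anti-Rad52 antibody, whereas those of WT replicate 3 and all ∆rad3 samples carry a text on RNA. On every array the IP DNA was labelled green and the input DNA red, so a dye effect was not balanced within a strain, although the series text speaks of reciprocal labelling. There was no control IP, and levels below include whatever DNA the immunoprecipitation brought down unspecifically. Separate cultures are not stated for the replicates, and the p-values may therefore reflect technical spread alone.

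Rad52 is a homologous recombination protein that binds single-stranded DNA and anneals complementary strands. Rad3 is the ATR kinase of fission yeast, which signals stalled forks and DNA damage, and HU stalls forks by lowering deoxyribonucleotide pools. Both ends of chromosome III hold the arrays of ribosomal DNA (rDNA), a repeat with a polar replication fork barrier. Origins of replication in this yeast lie mostly in intergenic stretches rich in A and T.

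One library stood apart in its DNA content at rad3, on chromosome II. Of 33 probes in that gene, 9 lacked input signal above background on each of the 3 ∆rad3 arrays. The remaining probes of the gene kept input above background on those arrays. On the arrays labelled WT, 0, 24 and 0 probes lacked it in replicates 1, 2 and 3. The count of 24 differed from the 9 of the ∆rad3 arrays as well as from the 0 of the other arrays labelled WT, and why was not tested. The library labelled WT replicate 2 therefore went against its label. Results below are given with and without it or array by array, and a WT mean given alone includes it. In the region the input was well above background for 712 to 718 probes on the ∆rad3 arrays and for 700 to 716 on the arrays labelled WT. The IP was so for 712 to 716 and for 684 to 716 probes. The median input signal over local background, taken over the whole array, was 9.58, 12.9 and 6.53 on ∆rad3 replicates 1 to 3, and 20.01, 14.7 and 5.04 on WT replicates 1 to 3, so the replicate 3 arrays were the dimmest.

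The annotation (RefSeq ASM294v3) places 79 protein-coding genes, 122 long non-coding RNA genes, 8 long terminal repeats and 1 ribosomal RNA gene in the region, and no tRNA gene. Probe lengths followed the base composition of that sequence best with no shift over the region as a whole, so genes and sequences were read at the array's coordinates. Median probe spacing was 251 bp, against 265 bp over the array, and the largest gap of 5115 bp lay over the retrotransposon Tf2-13, which has 0 probes. The last probe of the chromosome ended at 2439511, before the first annotated 18S rRNA gene, SPRRNA.46, at 2440994 to 2442835. The rDNA itself was thus not measured, and distances below are from the start of that gene. The region ended 7994 bp before it. Its A+T content was 64.4%, against 63.9% in the genome. It held 6 AT-rich islands, taken as merged windows of 1000 bp with at least 72% A+T and lying mostly outside coding sequence. That was 3 islands per 100 kb, against 3.5 in the genome.

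The sequences below, 1 gene and 3 AT-rich islands, lie in bins among the 10 highest means of a strain described further on, bin 2382001 by its WT mean alone. Most of the 10 highest bins of each strain overlap no island, so these sequences do not stand for those bins. The first is SPRRNA.07, the 5S rRNA gene of the region, at chrIII:2308122-2308319 on the minus strand. The next is the most A+T-rich 150 bases (90.7%) of the island beside it, at chrIII:2308493-2308642 on the plus strand, followed by the same of the island in bin 2382001 (84.7%, chrIII:2381996-2382145, plus strand). The last (84.0%, chrIII:2428589-2428738, plus strand) is from the outermost island, which lies in the bin with the second highest ∆rad3 level. All are from RefSeq ASM294v3 and run 5′ to 3′. The gene is in lower case throughout, and in the islands capitals mark unbroken runs of A and T of at least 12 bases.
SPRRNA.07: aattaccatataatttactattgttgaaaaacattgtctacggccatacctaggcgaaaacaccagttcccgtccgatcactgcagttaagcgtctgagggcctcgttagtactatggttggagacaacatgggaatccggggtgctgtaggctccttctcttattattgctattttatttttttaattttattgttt
Island beside SPRRNA.07: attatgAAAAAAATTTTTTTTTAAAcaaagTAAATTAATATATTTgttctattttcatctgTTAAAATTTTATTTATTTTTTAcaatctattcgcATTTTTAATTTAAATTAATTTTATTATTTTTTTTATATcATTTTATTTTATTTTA
Island between pcs60 and vms1: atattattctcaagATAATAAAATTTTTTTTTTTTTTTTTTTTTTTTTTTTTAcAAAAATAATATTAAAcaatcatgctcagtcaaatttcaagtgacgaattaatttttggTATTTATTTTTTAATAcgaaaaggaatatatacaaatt
Outermost island: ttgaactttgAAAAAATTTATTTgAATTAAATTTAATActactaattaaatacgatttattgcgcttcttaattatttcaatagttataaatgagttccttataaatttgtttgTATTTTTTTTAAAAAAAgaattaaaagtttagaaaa
The island beside SPRRNA.07 holds 5 such runs with 110 of its 150 bases, the island between pcs60 and vms1 holds 3 with 70 bases, and the outermost island holds 3 with 44 bases.

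Rad52 IP/input increased towards the rDNA end on all 3 ∆rad3 arrays and on the library labelled WT replicate 2, and stayed near the array median on WT replicates 1 and 3. Over the 192 bins the mean log2 IP/input was 0.49, 0.75 and 0.89 on ∆rad3 replicates 1, 2 and 3. It was 0.06, 1.70 and 0.07 on WT replicates 1, 2 and 3. The library labelled WT replicate 2 was thus the highest of the 6, and the 3 ∆rad3 arrays lay above both other WT arrays. The strain means were 0.71 ± 0.20 in ∆rad3 and 0.61 ± 0.94 in WT (SD, n = 3 each), a difference of 0.10. Without the library labelled WT replicate 2 the WT mean was 0.07 (n = 2) and the difference was 0.65, whereas without WT replicate 1 or 3 it was -0.18 or -0.17 and without ∆rad3 replicate 3 it was 0.01. Within slides, each of which held 1 array per strain with the same replicate number, ∆rad3 minus WT was 0.44, -0.95 and 0.82 on slides 1, 2 and 3.

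None of 61 other tiles of 200 kb, which did not overlap, was as high on the arrays that showed the rise. Stretches at other offsets were not searched. Among these tiles the highest mean was 0.20, 0.18 and 0.38 on ∆rad3 replicates 1 to 3. It was 0.08, 1.18 and 0.09 on WT replicates 1 to 3. On WT replicate 1, 7 tiles exceeded the region, and on WT replicate 3, 3 did, whereas none did on the other 4 arrays. These ranks describe the values by which the region was chosen.

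The share of bins at or above a log2 ratio of 0.5 shows how much of the stretch was raised. On ∆rad3 replicates 1, 2 and 3 it was 92, 135 and 143 of 192 bins (47.9%, 70.3% and 74.5%), against 6.21%, 5.96% and 11.8% of all bins on the same arrays. On WT replicates 1, 2 and 3 it was 11, 191 and 28 bins (5.73%, 99.5% and 14.6%), against 5.83%, 19.1% and 11.7% of all bins. Shares on WT replicates 1 and 3 were thus close to those of the whole array. The lowest, median and highest single bins were -0.15, 0.48 and 1.46 on ∆rad3 replicate 1, -0.21, 0.77 and 1.92 on replicate 2, and -0.37, 0.86 and 2.16 on replicate 3. They were -0.58, 0.02 and 0.80 on WT replicate 1, -1.14, 0.07 and 1.05 on WT replicate 3, and 0.19, 1.77 and 2.79 on the library labelled WT replicate 2.

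Within the region the rise had a slope rather than a step. Least-squares slopes of bin value on position, towards the end, were 0.22, 0.65 and 0.71 log2 units per 100 kb on ∆rad3 replicates 1 to 3. They were -0.01, 0.65 and 0.05 on WT replicates 1 to 3. The correlation of bin value with position over the 192 bins, which share library and neighbours, was 0.50, 0.85 and 0.79 on the ∆rad3 arrays and -0.01, 0.82 and 0.07 on those labelled WT. Mean slopes were 0.53 ± 0.27 in ∆rad3 and 0.23 ± 0.37 in WT (SD, n = 3 each), and 0.02 in WT without replicate 2.

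Windows of 20 kb trace the gradient. The window just outside the inner edge of the region (2213001 to 2233000) averaged 0.13, 0.13 and 0.23 on ∆rad3 replicates 1 to 3 and -0.07, 0.79 and 0.03 on WT replicates 1 to 3. The window just inside it averaged 0.33, 0.20 and 0.17 on ∆rad3 and 0.14, 0.94 and -0.03 on WT. The 2033001 window, further inward, stood at 0.11, 0.13 and 0.25 on ∆rad3 and at 0.05, 0.57 and 0.31 on WT. The ∆rad3 values just outside the edge were thus close to those far from it. These windows do not place the start of the rise. On the library labelled WT replicate 2 the 2193001 window stood at 0.71 and the 2173001 window at 0.13. Between the same windows the ∆rad3 arrays went from -0.08, -0.06 and -0.07 to 0.12, 0.21 and 0.22. WT replicate 3 went from -0.18 to 0.22 and WT replicate 1 from -0.08 to -0.06. In the middle of the stretch, the window from 2333001 stood at 0.50, 0.81 and 0.96 on ∆rad3 and at 0.07, 1.89 and 0.08 on WT. The outermost window (2413001 to 2433000, 17 bins) reached 0.68, 1.33 and 1.62 on ∆rad3 and 0.01, 2.34 and 0.20 on WT. On a linear scale this is an IP/input of 1.60, 2.52 and 3.07 times the array median on ∆rad3 replicates 1 to 3 and 1.01, 5.05 and 1.15 times on WT replicates 1 to 3. The order of the 3 ∆rad3 arrays was the same in 8 of the 10 windows of the region, with replicate 1 lowest and replicate 3 highest.

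**Figure D1:**
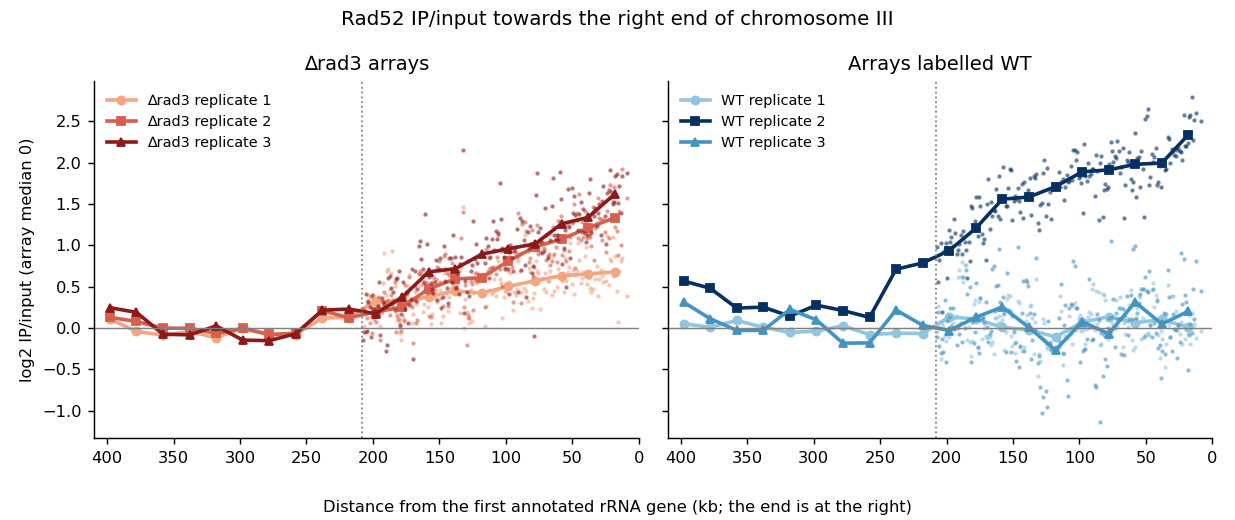
Log2 IP/input against distance from the first annotated rRNA gene, in 1-kb bins (small points, region only) and 20-kb window means (joined symbols), for the 3 ∆rad3 arrays (left) and the 3 arrays labelled WT (right), with the inner edge of the region as a dotted line. The ∆rad3 arrays climb to 0.68, 1.33 and 1.62 in the outermost window, the library labelled WT replicate 2 to 2.34, and WT replicates 1 and 3 stay at 0.01 and 0.20.

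Most of the gradient was in the IP channel on the arrays that showed it. The input fell towards the end on all 6 arrays, which adds to the rise of the ratio. The mean log2 IP signal of the region, with the array median at 0, was 0.43, 0.63 and 0.75 on ∆rad3 replicates 1 to 3 and -0.06, 1.65 and -0.10 on WT replicates 1 to 3. The mean input signal was -0.04, -0.09 and -0.10 on ∆rad3 and -0.10, -0.04 and -0.16 on WT. Strain means of the input were -0.08 ± 0.03 in ∆rad3 and -0.10 ± 0.06 in WT (SD, n = 3 each), so the 6 inputs lay within a narrow range and the groups overlapped. The IP difference between strains was 0.10 with all arrays and 0.68 without the library labelled WT replicate 2, and the input difference was 0.02 and 0.05.

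Probes differ in brightness, so each channel was also set against the mean of the 6 arrays at the same bins. On this scale the IP of the region stood at -0.12, 0.08 and 0.20 on ∆rad3 replicates 1 to 3 and at -0.61, 1.10 and -0.65 on WT replicates 1 to 3. The input stood at 0.05, 0.00 and -0.01 on ∆rad3 and at -0.01, 0.05 and -0.07 on WT. The spread of the input was therefore a small part of that of the IP.

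Input slopes per 100 kb were -0.06, -0.15 and -0.22 on ∆rad3 replicates 1 to 3 and -0.04, -0.13 and -0.29 on WT replicates 1 to 3. They were negative on all 6 arrays and similar within each slide. IP slopes were 0.16, 0.49 and 0.49 on ∆rad3 and -0.05, 0.53 and -0.24 on WT. A falling input adds to the slope of the ratio. The nearly flat ratio of WT replicate 3 thus held a falling IP and a falling input. In the outermost window the input fell below the array median, to -0.10, -0.34 and -0.56 on ∆rad3 and -0.10, -0.26 and -0.70 on WT. A lower input raises the ratio, and why the input was low there was not tested. The IP of the same window was 0.57, 0.97 and 1.02 on ∆rad3 and -0.11, 2.07 and -0.50 on WT, so it was above the array median on the 3 ∆rad3 arrays and the library labelled WT replicate 2, and below it on the other 2.

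**Figure D2:**
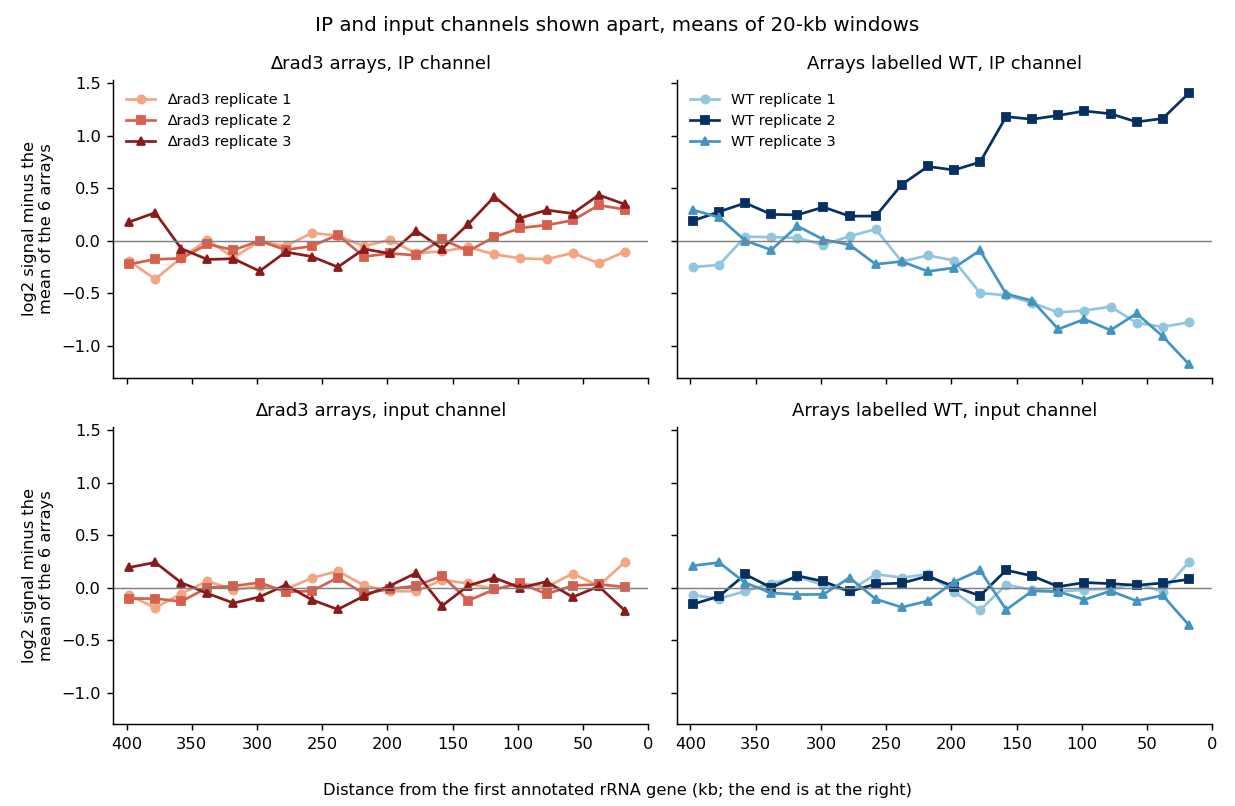
Mean log2 signal of 20-kb windows minus the mean of the 6 arrays, against distance from the first annotated rRNA gene, for the IP channel (top) and the input channel (bottom), with ∆rad3 arrays at the left and arrays labelled WT at the right. Against that mean, in the IP channel, the library labelled WT replicate 2 climbs and WT replicates 1 and 3 decline towards the end, at 1.10, -0.61 and -0.65 over the region. The mean includes the arrays that rise, and the IP slopes of WT replicates 1 and 3 themselves were -0.05 and -0.24 per 100 kb. The inputs lie between -0.07 and 0.05 over the region and, in its single windows, between -0.35 and 0.24.

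Within the gradient, the bin of the 5S rRNA gene stood out. SPRRNA.07 encodes 5S ribosomal RNA, which is transcribed by RNA polymerase III and in this yeast comes from genes dispersed outside the rDNA. Its bin (2308001 to 2309000, 4 probes) gave the highest ∆rad3 mean of the region. The log2 IP/input there was 1.46, 1.40 and 2.16 on ∆rad3 replicates 1 to 3 and 0.60, 1.86 and 0.85 on WT replicates 1 to 3, so the groups overlapped through the library labelled WT replicate 2. Strain means were 1.67 ± 0.42 in ∆rad3 and 1.10 ± 0.67 in WT (SD, n = 3 each). The difference of 0.57 (SE 0.32) had an adjusted p of 0.742 in the limma fit over all bins, and without that library it was 0.95 with an adjusted p of 0.25.

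Set against the median of the bins within 10 kb, which removes the gradient, the 5S bin was higher by 1.02, 0.84 and 1.38 on ∆rad3 replicates 1 to 3 and by 0.66, 0.25 and 1.02 on WT replicates 1 to 3. It exceeded its surroundings on all 6 arrays, including the 2 WT arrays without a gradient. No probe has its midpoint inside the gene, and the same bin holds the start of an AT-rich island, so gene and island cannot be told apart at this spacing. The next bin outward (2309001), which the island reaches into, was at 0.00, 0.26 and 0.19 on ∆rad3 and -0.58, 1.27 and -0.42 on WT, among the 3 lowest WT means of the region. The next bin inward (2307001) was at 0.73, 1.09 and 0.86 on ∆rad3, so the values fell off more sharply on the outer side.

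**Figure D3:**
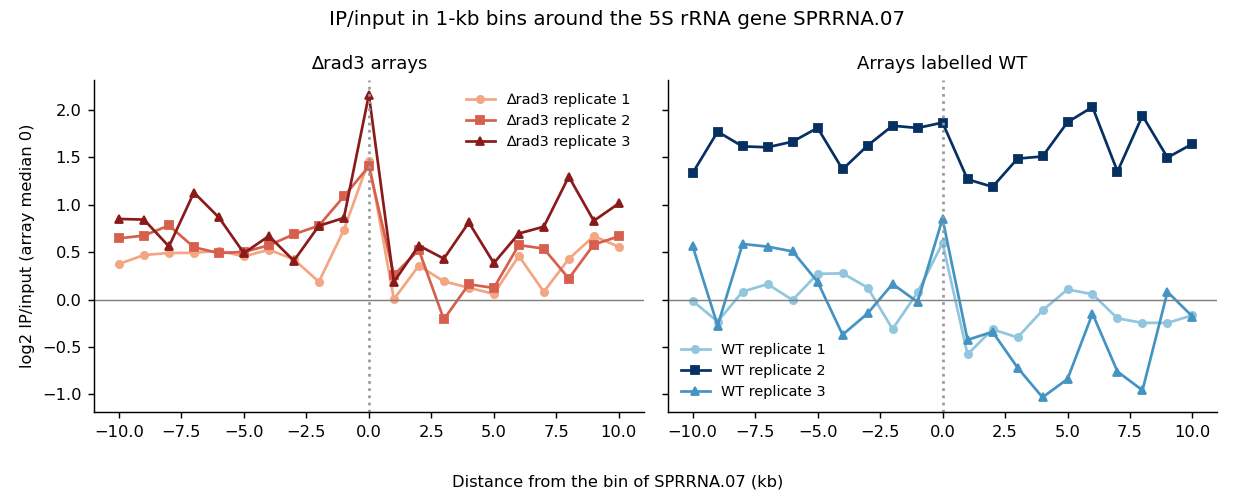
Log2 IP/input in 1-kb bins within 10 kb of the bin of SPRRNA.07, for ∆rad3 arrays (left) and arrays labelled WT (right). The bin of the gene, at 0 kb, reads 1.46, 1.40 and 2.16 on ∆rad3 and 0.60, 1.86 and 0.85 on WT, and the next bin outward 0.00, 0.26 and 0.19 on ∆rad3 and -0.58, 1.27 and -0.42 on WT.

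The 6 AT-rich islands varied. Their mean excess over the surrounding 10 kb was 0.26, 0.33 and 0.52 on ∆rad3 replicates 1 to 3 and -0.03, 0.07 and 0.51 on WT replicates 1 to 3, which includes the 5S bin. The outermost island (bin 2428001, between SPCC569.05C and SPCC569.03, its sequence above) reached 0.84, 1.92 and 1.83 on ∆rad3 and -0.11, 2.60 and 0.81 on WT. Its excess over its surroundings was 0.16, 0.51 and 0.17 on ∆rad3 and -0.13, 0.10 and 0.53 on WT. On the ∆rad3 arrays and the library labelled WT replicate 2 most of its height was thus that of the gradient. On WT replicate 3 most of its height was local. The island between pcs60 and vms1 (bin 2382001) exceeded its surroundings by 0.05, 0.40 and 0.42 on ∆rad3 and by -0.30, 0.37 and 0.73 on WT. The island between coq11 and lsm8 (bin 2276001) did so by 0.17, 0.24 and 0.50 on ∆rad3 and by -0.34, -0.05 and 0.51 on WT. WT replicate 1 was at or below its surroundings at 4 of the 6 islands. The other 2 islands, in bins 2363001 and 2426001, stood between -0.12 and 0.56 on ∆rad3 and between -0.23 and 0.18 on WT.

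Coding and non-coding bins differed by little compared with the gradient. The 102 bins with at least 50% coding sequence deviated from their surroundings by -0.03, -0.07 and -0.04 on ∆rad3 replicates 1 to 3 and by 0.11, 0.02 and -0.06 on WT replicates 1 to 3. The 90 bins with less coding sequence deviated by 0.06, 0.06 and 0.05 on ∆rad3 and by -0.05, -0.03 and 0.07 on WT. Their median A+T content was 66.5%, against 62.5% in the coding bins. Over the 192 bins the correlation of the local excess with A+T content was 0.36, 0.41 and 0.29 on ∆rad3 and -0.31, -0.02 and 0.26 on WT. That of the input with A+T was 0.24, 0.19 and -0.20 on ∆rad3 and 0.25, 0.24 and -0.22 on WT. The input followed A+T in opposite directions on slide 3 and on the other slides in both strains, and the part of base composition in the local values was not tested.

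Arrays could also be compared by the pattern of single bins. Over the 192 bins, which are neighbours of one another, levels correlated at 0.77 between ∆rad3 replicates 2 and 3, and at 0.73 and 0.76 between the library labelled WT replicate 2 and these. The library labelled WT replicate 2 correlated at -0.05 and 0.16 with WT replicates 1 and 3. Once the local median was taken off, the same 5 pairs stood at 0.33, 0.07, 0.26, 0.03 and 0.17. The largest correlation of local values was 0.52, between ∆rad3 replicates 1 and 2, whose levels correlated at 0.67. Next came ∆rad3 and WT replicates 3 at 0.45 and ∆rad3 and WT replicates 1 at 0.36, pairs that shared a slide, against 0.32 and 0.33 for their levels. The local correlation was above that of the levels in 7 of the 15 pairs, 5 of them between a ∆rad3 array and WT replicate 1 or 3. Pairs among the 4 arrays with the gradient were all lower once the local median was off, down to -0.11 for ∆rad3 replicate 1 with the library labelled WT replicate 2.

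Among single bins, the highest ∆rad3 means after the 5S bin lay in the outermost 30 kb, with 1 exception. The intergenic bin 2419001 stood at 0.84, 1.73 and 1.91 on ∆rad3 replicates 1 to 3 and at 0.04, 2.58 and 0.84 on WT replicates 1 to 3. Bin 2417001, at the edge of SPCC569.07 (annotated as an aromatic aminotransferase) and mostly outside it, stood at 1.11, 1.42 and 1.63 on ∆rad3 and at 0.07, 2.13 and 0.91 on WT. Bin 2421001 in SPCC569.06, an uncharacterised protein, stood at 1.09, 1.52 and 1.51 on ∆rad3 and at 0.21, 2.20 and 0.31 on WT. The others in the outermost 30 kb were bins 2420001 and 2422001 at SPCC569.06, 2423001 at SPCC569.05C and 2432001 at SPCC569.02C, with ∆rad3 means from 1.28 to 1.34 and WT means from 0.56 to 0.97. The exception was bin 2376001, over parts of utp25, whose product is associated with the U3 RNA of ribosome assembly, and pcy1, a gene of phosphatidylcholine synthesis. It stood at 0.87, 1.23 and 1.81 on ∆rad3 and at 0.08, 2.04 and 0.39 on WT.

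The highest WT means rested on the library labelled WT replicate 2, with some height on replicate 3. The highest bin, 2407001 over nsa2 (ribosome biogenesis) and rpp103 (ribosomal protein P1), stood at 0.67, 0.82 and 1.36 on ∆rad3 replicates 1 to 3 and at 0.52, 2.31 and 0.70 on WT replicates 1 to 3. It and the bin of SPRRNA.07 were the 2 bins of the region that reached 0.5 on all 6 arrays. Bin 2364001 at sac32, annotated as a nuclear export factor, stood at 0.69, 1.25 and 1.88 on ∆rad3 and at -0.04, 2.25 and 1.05 on WT. Bin 2337001 in trm732, whose product acts in tRNA methylation, stood at 0.54, 0.94 and 1.31 on ∆rad3 and at 0.30, 2.15 and 0.75 on WT. The others were bins 2382001 (vms1), 2390001 (spx2) and 2392001 (ppk38), with WT means from 1.01 to 1.04 and ∆rad3 means from 1.17 to 1.19. Bins 2308001, 2417001, 2419001 and 2428001 were among the 10 highest in both strains.

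The lowest bins lay in the inner part. Bin 2271001, at SPCC1840.07C (phosphoprotein phosphatase) and pdi5, stood at 0.17, -0.17 and -0.37 on ∆rad3 replicates 1 to 3 and at -0.12, 1.50 and 0.02 on WT replicates 1 to 3. Bin 2246001 in rbd2, the Golgi rhomboid protease gene, stood at 0.03, -0.14 and -0.08 on ∆rad3 and at 0.01, 1.32 and -0.01 on WT. Bin 2262001 in sal3, which encodes a nuclear import receptor of the importin beta family, stood at -0.15, -0.04 and 0.17 on ∆rad3 and at 0.34, 1.30 and -0.05 on WT. At all 3 the range of the ∆rad3 arrays overlapped that of WT replicates 1 and 3, while the library labelled WT replicate 2 stood at 1.30 to 1.50. The lowest WT mean was at bin 2237001 (bmt5 and bdp1), with 0.40, 0.31 and 0.33 on ∆rad3 and 0.06, 0.19 and -0.13 on WT.

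By gene, 74 of the 79 protein-coding genes had at least 2 probes, and the median gene of each array had a log2 IP/input that averaged 0.73 ± 0.24 in ∆rad3 and 0.63 ± 0.98 in WT (SD, n = 3 each), or 0.07 in WT without replicate 2. The 10 with the highest ∆rad3 mean all lay within 85.2 kb of the first rRNA gene, and the 5 lowest lay at least 169.3 kb from it. SPCC569.06 (III 2420265 to 2422253, minus strand, 8 probes) headed the list with 0.91, 1.54 and 1.60 on ∆rad3 replicates 1 to 3 and 0.08, 2.17 and 0.29 on WT replicates 1 to 3. The outermost measured gene, SPCC569.02C (2432612 to 2433520, 2 probes), stood at 0.12, 1.82 and 1.78 on ∆rad3 and at 0.01, 2.46 and 0.35 on WT. Its input, with the array median at 0, lay at -0.36, -3.35 and -4.98 on ∆rad3 and at -0.83, -2.80 and -1.95 on WT. The input was far below the median on replicates 2 and 3 of both strains, so the ratios there rest on weak signals.

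Genes near the top of the list served varied functions. SPCC569.05C, a transporter of the spermidine family and the best covered of them with 18 probes, stood at 0.52, 1.09 and 1.63 on ∆rad3 replicates 1 to 3 and at 0.02, 2.52 and 0.12 on WT replicates 1 to 3. SPCC569.04 lies inside it on the other strand and shares its probes. The puf6 gene, for a Puf-family RNA-binding protein, stood at 0.55, 1.49 and 1.43 on ∆rad3 and at 0.35, 2.06 and -0.03 on WT. The pal1 gene, whose product acts in cell shape, stood at 0.62, 1.29 and 1.50 on ∆rad3 and at 0.40, 2.12 and 0.23 on WT. In each of these the 4 arrays with the gradient were higher than WT replicates 1 and 3.

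Of the rest of the top 10, ecl1 differed in which array was highest. At ecl1, an extender of chronological lifespan (2 probes), the values were 1.22, 1.39 and 0.79 on ∆rad3 replicates 1 to 3 and 0.48, 1.24 and 0.08 on WT replicates 1 to 3, so the library labelled WT replicate 2 was not the highest. The mug170 gene, an arrestin-family adaptor, stood at 0.92, 1.25 and 1.21 on ∆rad3 and at 0.31, 1.92 and 0.09 on WT. The are2 gene, for a sterol acyltransferase, stood at 0.76, 1.27 and 1.28 on ∆rad3 and at 0.16, 1.71 and 0.06 on WT. At mug170 and are2 that library was the highest and WT replicates 1 and 3 were the lowest. The 2 others were dhm1, an ankyrin-repeat protein gene, and rpp103, with ∆rad3 means of 1.19 and 1.15. Their WT means were 0.69 and 0.83, or -0.09 and 0.15 without WT replicate 2.

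At the inner edge, rbd2 stood at 0.09, -0.12 and 0.08 on ∆rad3 replicates 1 to 3 and at 0.03, 1.36 and 0.13 on WT replicates 1 to 3. The gene bmt5, an rRNA methyltransferase, stood at 0.31, 0.12 and -0.04 on ∆rad3 and at -0.38, 1.03 and -0.30 on WT. The other low genes, erm2 (an aminopeptidase gene that reaches past the edge), SPCC1840.07C and sal3, had ∆rad3 means of 0.12 to 0.17 and WT means of 0.27 to 0.53. Without WT replicate 2 their WT means were 0.01, 0.09 and 0.11. The lowest WT mean was that of the cytosine deaminase gene SPCC965.14C, where the values were -0.06, 0.45 and 0.42 on ∆rad3 and -0.09, 1.32 and -0.93 on WT.

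The gene classes counted by annotated product were small. The median over the 4 transporter genes (opt3, agp3, SPCC965.13 and SPCC569.05C) on each array averaged 0.50 ± 0.09 in ∆rad3 and 0.54 ± 0.93 in WT (SD, n = 3 each), or 0.01 in WT without replicate 2. The median over the 5 genes annotated as transcription factors (bdp1, SPCC965.10, taf13, tfb6 and adn3) averaged 0.56 ± 0.06 in ∆rad3 and 0.42 ± 0.91 in WT, or -0.11 in WT without replicate 2. The only ribosomal protein gene was rpp103. The only product matching the words for replication and repair was that of dbp9, an RNA helicase. Chosen after their values were seen, because their products act on DNA or its precursors, thp1 (a uracil DNA glycosylase) stood at 0.46, 0.56 and 0.85 on ∆rad3 and at -0.02, 1.54 and -0.05 on WT. The tmp1 gene (thymidylate kinase), which overlaps sac32, stood at 0.40, 0.89 and 1.17 on ∆rad3 and at 0.09, 1.997 and 0.01 on WT.

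The question set by the design is whether the distribution of Rad52 differed between ∆rad3 and WT cells. Under the labels as given, limma over all 12058 bins called 0 of the 192 bins of the region higher and 0 lower in ∆rad3 (Benjamini-Hochberg adjusted p under 0.05), against 0.00829% of all bins higher and 0% lower. No bin of the region had an unadjusted p under 0.05, against 6.98% of all bins, and the smallest adjusted p in the region was 0.742. With the slide as a replicate block the count in the region was again 0 in each direction, against 0.813% of all bins higher and 0.00829% lower, and 2 bins of the region had an unadjusted p under 0.05, against 11.7% of all bins. In the IP channel alone and in the input channel alone the counts were also 0, against 0% of all bins, with an unadjusted p under 0.05 at 0 bins of the region in each (3.88% and 0.174% of all bins). The region was chosen by values raised on the ∆rad3 arrays and the library labelled WT replicate 2. A wide spread within WT thus came with that choice, so the counts in IP/input and IP cannot decide the question for this region.

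The library labelled WT replicate 2 set the spread within WT. It was the highest of the 6 arrays at 189 of the 192 bins (98.4%), against 26% of all bins. The 3 other bins were those of SPRRNA.07, of bmt5 and bdp1 (2237001), and the intergenic bin 2381001 beside the island near pcs60. All 3 ∆rad3 arrays exceeded all 3 arrays labelled WT at 1 bin of the region (0.521%), bin 2237001, against 6.96% of all bins. They exceeded WT replicates 1 and 3 at 131 bins (68.2%), against 12.4% of all bins.

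Without the library labelled WT replicate 2, 2 arrays were left in WT. The region was chosen by values raised on the ∆rad3 arrays and that library, so the counts without it describe those values and give no independent support to a difference. The limma fit then called 0 bins of the region higher and 0 lower, against 0% of all bins, with a smallest adjusted p of 0.0881. Of the 192 bins, 182 were higher in ∆rad3, and 120 were so at an unadjusted p under 0.05, against 7.6% of all bins in either direction. The median difference over the region was 0.68, against -0.002 over all bins, and with all arrays it was 0.13, against 0.002. In the IP channel 87 bins had an unadjusted p under 0.05, against 4.55% of all bins, and 0 passed the adjustment. In the input channel 0 did either, against 0.124% of all bins at the unadjusted p.

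The slide block without that library, an alternative chosen after seeing the data, left 2 slides with both strains and 1 residual degree of freedom per bin, so its errors were mostly borrowed from other bins. It called 69 bins of the region higher and 0 lower in ∆rad3, against 2.31% of all bins higher and 0.182% lower. In the IP channel it called 70 higher and 0 lower, against 2.95% and 0.406% of all bins, and in the input channel 0. Because the values on these arrays chose the region, nothing is read from the excess over all bins.

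**Figure D4:**
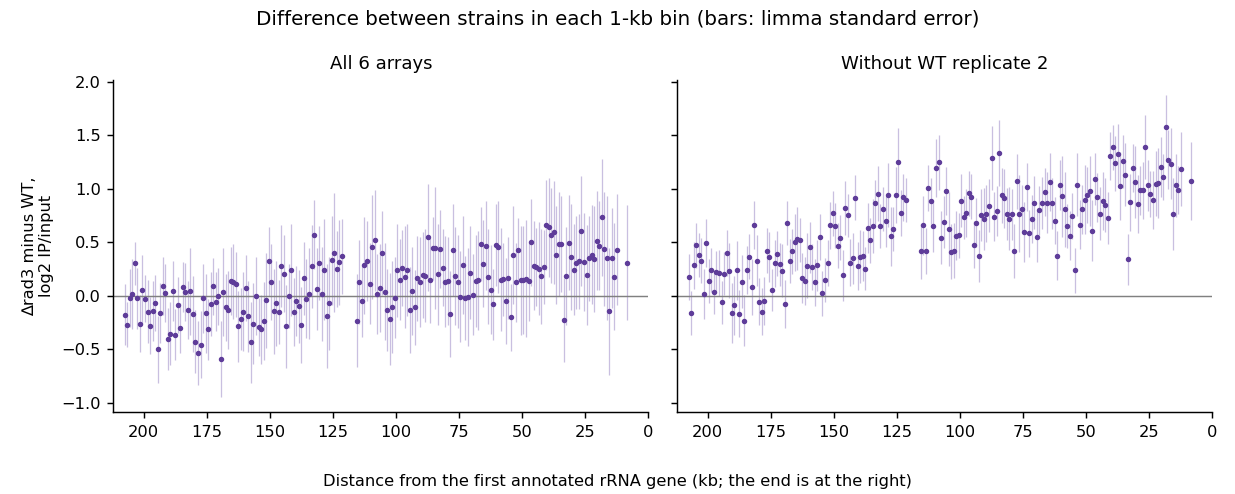
Difference in log2 IP/input, ∆rad3 minus WT, in each 1-kb bin against distance from the first annotated rRNA gene, with limma standard errors as bars, from all 6 arrays (left) and without the library labelled WT replicate 2 (right). With all arrays the median bin stands at 0.13 and 121 of 192 bins are above 0, and without that library the median stands at 0.68 and 182 are above 0.

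The single bins show the same dependence. The largest difference towards ∆rad3 was at bin 2422001, at the edge of SPCC569.06 and mostly outside it. It stood at 0.63, 1.71 and 1.52 on ∆rad3 replicates 1 to 3 and at -0.06, 2.24 and -0.51 on WT replicates 1 to 3. The difference was 0.73 (SE 0.55, limma adjusted p 0.801), and 1.57 (adjusted p 0.104) when that library, labelled WT replicate 2, was left out. Bin 2400001 in are2 stood at 0.87, 1.41 and 1.15 on ∆rad3 and at -0.08, 1.77 and -0.24 on WT. Its difference was 0.66 (adjusted p 0.766), and 1.30 (adjusted p 0.0881) without that library. Bin 2401001, at the edge of apl4 (the gamma subunit of the AP-1 adaptor), had differences of 0.64 and 1.39, with 3 ∆rad3 values between 0.98 and 1.28. The other 2 were bins 2414001 (SPCC569.09 and SPCC569.07) and 2403001 (apl4), at 0.61 and 0.59.

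The largest differences towards WT lay in the inner part. They were -0.59 at bin 2271001, -0.53 at 2262001 (sal3), -0.50 at 2246001 (rbd2), -0.46 at 2263001 (sal3 and pca1) and -0.44 at 2283001 (opt3, an oligopeptide transporter gene), with adjusted p from 0.742 to 0.838 in limma. Without that library they were -0.08, -0.15, -0.06, -0.05 and 0.13, so the last turned positive. Bin 2283001 stood at 0.42, 0.14 and 0.61 on ∆rad3 and at 0.16, 1.95 and 0.37 on WT.

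The arrays whose labels share 1 protocol text were the 3 of ∆rad3 and WT replicate 3. Among these limma called 5 bins of the region higher and 0 lower in ∆rad3, against 0.34% and 0% of all bins, and nothing is read from that count either. A single array stood for WT, so no spread of WT entered it. WT replicate 3 read -0.58 to -1.14 at these bins and WT replicate 1 read -0.20 to 0.44, so WT replicate 3 was the lower of these 2 arrays at each.

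The other chromosome ends were measured in the same way. Over 200 kb, the left end of chromosome III, which also borders rDNA, averaged 0.07, 0.08 and 0.10 on ∆rad3 replicates 1 to 3 and 0.05, 0.38 and 0.09 on WT replicates 1 to 3. Its outermost 20 kb stood at 0.18, 0.36 and 0.54 on ∆rad3 and at -0.04, 0.48 and 0.44 on WT. The right end of chromosome I averaged 0.13, 0.11 and 0.21 on ∆rad3 and -0.08, 1.12 and -0.17 on WT. In its outermost 20 kb, where 6 bins had values, it stood at 0.60, 0.59 and 0.97 on ∆rad3 and at -0.08, 1.22 and -0.42 on WT, so there too the library labelled WT replicate 2 was the highest and WT replicates 1 and 3 were the lowest. The right end of chromosome II averaged 0.10, 0.07 and 0.13 on ∆rad3 and 0.01, 0.80 and -0.04 on WT. The left ends of chromosomes I and II lay between -0.01 and 0.11 on ∆rad3 and between -0.17 and -0.01 on WT. Among the 6 ends, the mean over 200 kb was above 0.4 on the ∆rad3 arrays at the right end of chromosome III alone, while their outermost 20 kb was above 0.5 on all 3 at the right end of chromosome I too. The library labelled WT replicate 2 averaged more than 0.3 over 200 kb at 4 of them. Differences between ends were not tested.

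**Figure D5:**
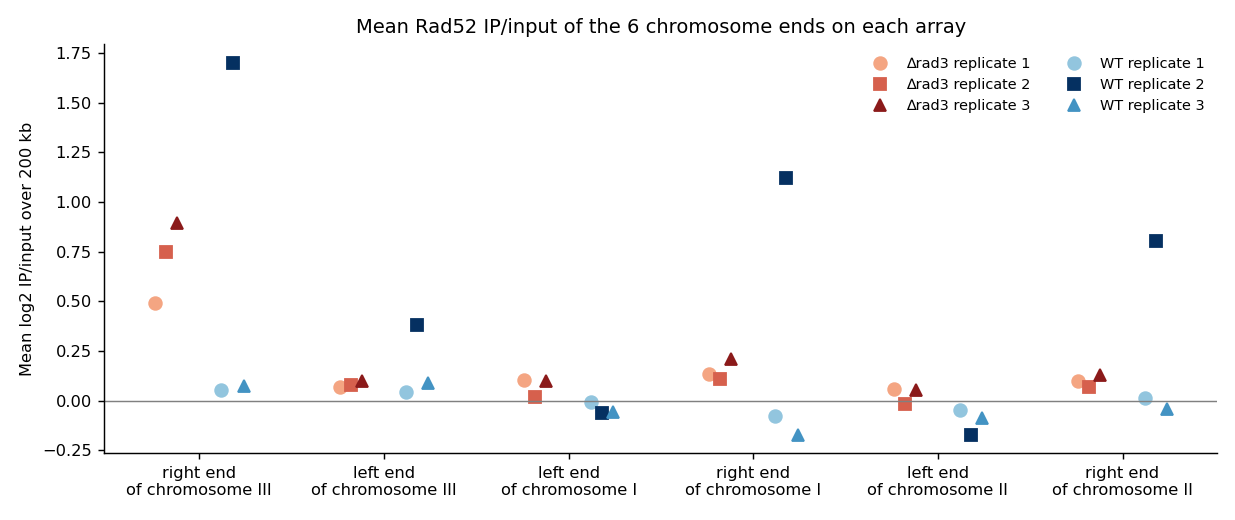
Mean log2 IP/input over the 200 kb at each chromosome end on each array, with the 3 ∆rad3 arrays to the left of the 3 arrays labelled WT at every end. At the right end of chromosome III the ∆rad3 arrays stand at 0.49, 0.75 and 0.89 and the library labelled WT replicate 2 at 1.70, against 1.12 and 0.80 for that library at the right ends of chromosomes I and II.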

How the data were processed

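Each of the 6 arrays carried Rad52 IP DNA and input DNA from 1 sample. The deposited intensity values, linear spot signals, had been background-subtracted and dye-normalized with a linear method by the authors in Agilent Feature Extraction 10.7.3.1, per the file headers and the submitters' processing notes. The deposited log10 ratio has red (input) on top. The log2 of green (IP) over red was therefore computed anew from the processed signals, and the median of each array was set to 0 without loess. Control spots and outlier-flagged spots were left out, as were probes whose input cleared background on fewer than 3 arrays, which left 42659 probes and all 718 of the region. Bins of 1 kb with at least 2 probes and a value on all 6 arrays were fitted in 1 limma model with 4 residual degrees of freedom, and p-values were Benjamini-Hochberg adjusted over 12058 bins. The region's own levels and slopes were left untested, and the planned count of bins raised above 0 within a strain, which rests on a p-value of the values that chose the region, is not reported. The script was tested on simulated data. For precision, arrays give no counts, and their number (3 per strain) is the limit.

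The headers put same-numbered arrays of the strains on 1 slide in 1 scan, and name a ChIP protocol for slide 2 but a CGH protocol for the others. Their deviations from the strain means correlated at 0.472, 0.101 and 0.261, all above the 0.1 taken as pairing, and pairs from different slides at -0.39 to 0.118, the last for ∆rad3 replicate 3 with WT replicate 2, so the slide block is given beside the main fit.

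Named bins and genes were the 10 highest and the 3 (bins) or 5 (genes) lowest means of each strain, the 5 largest differences in each direction, the 5 outermost genes, RNA genes, AT-rich islands and any bin called different. Groups of genes were matched by words in the annotated product. The members and lists were chosen with earlier results of these data known. Alternatives were the background correction (normexp with an offset of 50), scaling of arrays, loess, filters on dim or outlier-flagged probes, centring, bins of 500 bp and 2 kb, a trended robust variance, arrays with 1 protocol text, and leaving out each array. Tools were R 4.3.3, limma 3.58.1, data.table (version 1.17.8), Python 3.11.15, pandas 2.3.3, numpy 2.4.6 and matplotlib 3.10.9.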

Additional observations from a re-analysis of the deposited data

How the results depend on the processing

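With limma over all bins, 0 bins of the region differed between strains in IP/input, in either direction, under the slide (replicate) block, normexp background correction, scaling of arrays to one spread, loess, both filters on dim probes, centring on chromosomes I and II, kept outlier spots, 500-bp and 2-kb bins, a trended robust variance and each array left out (range 0 to 0). The count of higher bins was 5 among arrays with one protocol text and 69 with the replicate block without WT replicate 2 (70 in the IP channel), a setting chosen after seeing the data. The cause was not tested. Over all bins the counts higher and lower were 1 and 0 as reported, 98 and 1 under the slide block, 75 and 1 with scaled arrays, 71 and 0 with normexp, 4 and 0 with loess or with outlier spots kept, 41 and 0 with one protocol text, and 278 and 22 with the block without WT replicate 2. With all arrays the block changed no call in the region. Without WT replicate 2 it moved the count there to 69 in IP/input and 70 in the IP channel, against 0 without the block in both.

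The difference at bin 2262001 turned to 0.042 with one protocol text. That at bin 2283001 turned to 0.10 with normexp, 0.022 with one protocol text and 0.25 with the block without WT replicate 2, and ran from -0.77 (without WT replicate 1) to 0.13 (without WT replicate 2) on leaving out 1 array. The region's mean difference, 0.10 as reported, was 0.33 with scaled arrays, 0.22 with normexp, 0.14 with loess and 0.07 with centring on chromosomes I and II. On leaving out 1 array it ran from -0.18 (without WT replicate 1) and -0.17 (without WT replicate 3) to 0.65 (without WT replicate 2), so its sign depended on single arrays. These moves are below the pooled SD of the strains, which the library labelled WT replicate 2 makes wide (0.94 in WT, 0.20 in ∆rad3). The difference of mean slopes, 0.29, stayed positive, from 0.17 to 0.50, under the 9 alternatives tried. Within slides it was 0.23, -0.01 and 0.66 on slides 1, 2 and 3, so slide 2 showed none. The slopes come from the values that chose the region.

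Limits are 3 arrays per strain, 1 library that goes against its label, weak signals on the replicate 3 arrays, an unbalanced dye and no control IP. The rDNA was not measured.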
